A study of Mus musculus with 2 samples.

Results

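The DOCK family of guanine nucleotide exchange factors was examined in leukemia-initiating cells of a mouse acute myeloid leukemia, on 1 array from Jam3-null cells and 1 array from wild-type (WT) cells. Its members were Dock1, Dock2, Dock4, Dock5, Dock6, Dock8, Dock9, Dock10 and Dock11, found by gene name among the non-control spots of the arrays. They were 9 of 27337 genes and held 36 of 43379 non-control spots, each spot a different probe. The members were selected on their signals and log2 differences on these same arrays, so every difference below is a description and none is a test. Dock3, another gene of the family, is described beside them.

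Both groups were female mice whose leukemia carried the MLL-AF9 fusion gene with a YFP reporter, and in both the bone marrow cells were sorted for YFP, Mac-1 and c-Kit. The groups differed in Jam3, the gene of an immunoglobulin superfamily adhesion molecule on the cell surface. Each label names 3 mice for its array, and how their RNA was combined is not given in these sources. The brighter of its probes on the arrays failed the scanner software's background call on both (processed signals 28.1 on the Jam3-null and 5.09 on the WT array), so the genotypes are those of the labels. With 1 array per genotype no difference has a replicate check and no p-value is given.

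DOCK proteins switch on Rac and Cdc42, small GTPases that control actin, by exchanging GDP for GTP in a catalytic region, DHR-2, that is unrelated to the DH domain of most other exchange factors for these GTPases. The DOCK-A and DOCK-B subfamilies act mainly on Rac and bind ELMO adaptors, the DOCK-D subfamily acts on Cdc42, and the DOCK-C subfamily on Rac, Cdc42 or both. In blood cells Dock2 is the best known Rac activator of migrating lymphocytes and neutrophils, and Dock8 is needed for the shape and movement of leukocytes in tissue. Dock1 is known for actin remodelling during cell spreading and the engulfment of dying cells.

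Each probe of these arrays was 60 bases long, and the positions of the probes are given on mm9, the build named in the array files. Exon and UTR annotation on that build was not used here. The first 30 bases of each Dock1 and Dock5 probe are printed because the largest positive differences among the members rest on them. Dock1 is on the plus strand of chromosome 7, with probes at chr7:142365246-142365305, chr7:142365115-142365174 and chr7:141974695-141974754. Dock5 is on the minus strand of chromosome 14, with probes at chr14:68370263-68370322, chr14:68372717-68372776, chr14:68373821-68373880 and chr14:68433817-68433876. Probes are numbered from the 3′ end of the gene.
Dock1 probe 1: ttcactctgatcatgatactgtttgttcta
Dock1 probe 2: tctaaataccgcaaaattgttttccagatt
Dock1 probe 3: cttgttgaaagagatgcatgataaattagc
Dock5 probe 1: tccttcaccatgagtttataacttactggg
Dock5 probe 2: ctaaggtaaggtctgatacggtttggtttt
Dock5 probe 3: tatgccttggattccatggaagctctttgg
Dock5 probe 4: gtggccactgaatacagagctttaacacct

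A family of related genes can share sequence between probes, which was measured here on all DOCK probes. The longest exact run shared by probes of different DOCK genes was 15 bases, between Dock10 probe 2 (bases 1 to 30 shown, chr1:80499227-80499286) and Dock11 probe 2 (bases 31 to 60 shown, chrX:33608387-33609863, a span interrupted in the genome). The shared run is in capitals below. No more than 24 bases were identical in any ungapped overlap of 30 or more bases between such probes. No other probe on the arrays shared a run of 20 bases with a DOCK probe.
Dock10 probe 2: TCATACAAGCATGCAaatgaagcataaata
Dock11 probe 2: catgtttagaaaatTCATACAAGCATGCAg

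Of the 9 members, 8 were well above background on both arrays, by the scanner software's own call, and Dock1 was so on the Jam3-null array only. All differences are in log2, with each array first divided by its own 75th percentile, and WT is subtracted from Jam3-null, so positive values stand for more signal in Jam3-null cells. Of these 8, Dock5 was at least 2-fold higher and Dock6 at least 2-fold lower, where the shares of all 14361 genes so measured were 10.3% in the first direction and 8.59% in the second. The remaining 6, Dock2, Dock4, Dock8, Dock9, Dock10 and Dock11, were less than 2-fold apart at their brightest probes, and the median of the 8 was -0.19, against -0.07 for all genes. Among the 36 probes, 21 were well above background on both arrays, 4 on the Jam3-null array only, 5 on the WT array only and 6 on neither. Of the 21, 4 were at least 2-fold higher, all of Dock5, and 1 was at least 2-fold lower, of Dock6, where the shares over all probes were 9.85% and 7.86%. The choice of members used these values, so the counts are not read against the shares. Across all 27337 genes, passing the call in WT alone was the commoner state, at 2438 against 466 for Jam3-null alone. The WT-only probes of Dock6, Dock8 and Dock10 are therefore not read as a feature of the family.

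**Figure D1:**
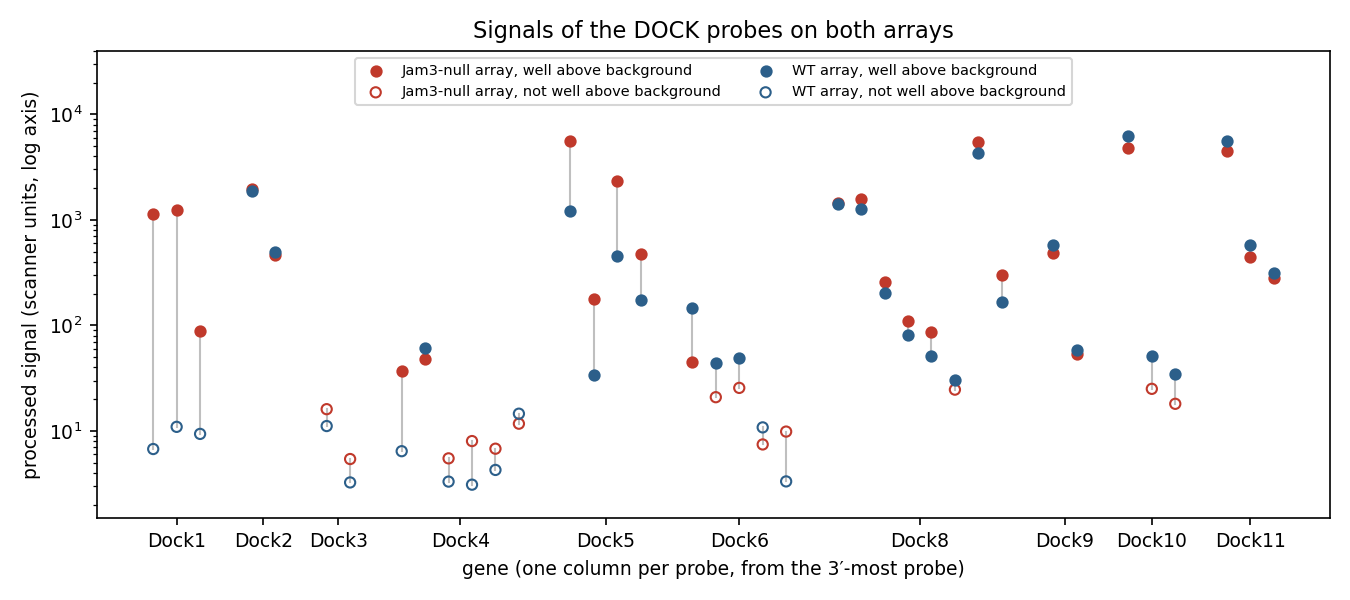
Processed signal (scanner units, log axis) of every probe of the members and of Dock3 on the Jam3-null array (red) and the WT array (blue). A grey line joins the 2 signals of a probe, and open circles are signals not well above background. All 3 Dock1 probes have filled red and open blue circles, and all 4 Dock5 probes have the red circle above the blue one; heights are not comparable between probes.

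Dock1, the DOCK-A member that works with ELMO proteins in engulfment, was separated most widely. At probe 1 the processed signals were 1131 on the Jam3-null and 6.73 on the WT array. Probe 2, which lies 0.131 kb from it, had 1240 and 10.9. Probe 3, a cDNA clone probe 391 kb upstream, had 88.1 and 9.36. All 3 probes passed the background call on the Jam3-null array and none did on the WT array, so only a bound can be given. For the bound, the WT side took the lowest signal that passed the background call on its array, or the signal of the probe itself where that was higher. By this rule Dock1 was at least 78.4-fold higher by probe 1, at least 85.9-fold by probe 2 and at least 6.11-fold by probe 3. The bounds take no measurement error into account. After normexp background correction, which adds an offset of 50 to every signal, the log2 bounds of 6.29, 6.42 and 2.61 became 4.20, 4.02 and 1.16.

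Dock5 is a Rac exchange factor of the same subfamily, known in osteoclasts, mast cells and neutrophils. Probe 1 had 5629 on the Jam3-null and 1223 on the WT array. Probe 2 had 179 and 33.6. Probe 3 had 2311 and 452. These probes lie within 3.56 kb. Probe 4, a cDNA clone probe 63.6 kb upstream, had 472 and 172. The Jam3-null signal was the higher at every Dock5 probe. The log2 differences were 2.30 ± 0.40, 2.51 ± 0.48, 2.45 ± 0.40 and 1.55 ± 0.41, where the error is a 95% measurement interval from the scanner software's error model and covers no spread between animals. The differences had an SD of 0.44 over the 4 probes (range 1.55 to 2.51), and the interval of probe 4 overlapped that of probe 1 but not those of probes 2 and 3. After normexp correction probe 2 gave 1.57. By its brightest probe Dock5 was 4.92-fold higher, and 361 genes (2.51% of those measured on both arrays) were at least as high.

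Dock2, the DOCK-A gene known as the main Rac exchange factor of blood cells, had nearly equal signals on both arrays. Its probe at chr11:34129586-34130706 had 1971 on the Jam3-null and 1887 on the WT array. Its probe at chr11:34131691-34132820 had 463 and 491. The differences were 0.16 ± 0.40 and 0.01 ± 0.40, so both intervals held 0 and a change of up to 0.56 in log2 lies within the measurement error of the brighter probe.

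In the DOCK-B subfamily most probes were near background. Dock4, a Rac exchange factor that also takes part in Wnt signalling, had 6 probes on chromosome 12, and 4 of them passed the background call on neither array. The probe at chr12:41570886-41570945 was well above background on both arrays, with 47.6 on the Jam3-null and 61.0 on the WT array, a difference of -0.26 ± 0.55. The probe nearest the 3′ end, at chr12:41572977-41573036, had 37.1 and 6.42 and passed the background call only on the first, at least 2.57-fold higher (log2 bound 1.36, and 0.71 after normexp correction). The interval of the first of these Dock4 probes held 0, so no direction can be given for it. Dock3, a mostly neuronal relative, had 16.1 and 11.1 at its brighter probe, and neither of its probes passed the background call.

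The DOCK-C subfamily held the one member that was lower. Dock6, an exchange factor for Rac and Cdc42, had at chr9:21605740-21605988 a signal of 44.6 on the Jam3-null and 147 on the WT array. The difference was -1.63 ± 0.55, 3.09-fold lower, and 389 genes (2.71%) were at least as low. After normexp correction it was -0.84, less than 2-fold. A pair of further Dock6 probes was well above background on the WT array only, with 20.9 and 44.2 at chr9:21607316-21607464 and with 25.6 and 49.3 at chr9:21635959-21636018. Their log2 bounds were -0.68 and -0.83, and -0.24 and -0.21 after normexp correction. A probe seen on the WT array only can have no bound but a negative one, so their sign adds nothing to the first probe. As bounds they do not show how large the differences were. The last 2 Dock6 probes, farthest upstream, were not well above background on either array.

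Dock8, whose loss causes an inherited immune deficiency, was read by 8 probes along 136 kb of chromosome 19, and 7 were well above background on both arrays. Its brightest probe, at chr19:25175586-25175645, had 5410 on the Jam3-null and 4264 on the WT array, a difference of 0.44 with a 95% measurement interval from 0.04 to 0.84. At the 3′-most probe, chr19:25275989-25276048, the signals were 1441 and 1417 (0.12 ± 0.40). At the probe farthest upstream, chr19:25140044-25140103, they were 301 and 167 (0.94 ± 0.41, and 0.76 after normexp correction). The Jam3-null signal was the higher at all 7, with differences from 0.12 to 0.94, a median of 0.44 and an SD of 0.28, and none reached 2-fold. The brightest probe and the probe farthest upstream, among others, were cDNA clone probes. The 7 probes share the arrays, and whether they read the same transcript was not examined. Across the 7 the Spearman correlation of the difference was 0.79 with the distance from the 3′ end. It was -0.79 with the mean signal of the probe, so position and brightness cannot be told apart. After normexp correction the differences ran from 0.13 to 0.76 with a Spearman correlation of 0.86 with distance. The eighth probe, at chr19:25176933-25176992, was well above background on the WT array only (24.6 and 30.3), and its log2 bound was -0.13.

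**Figure D2:**
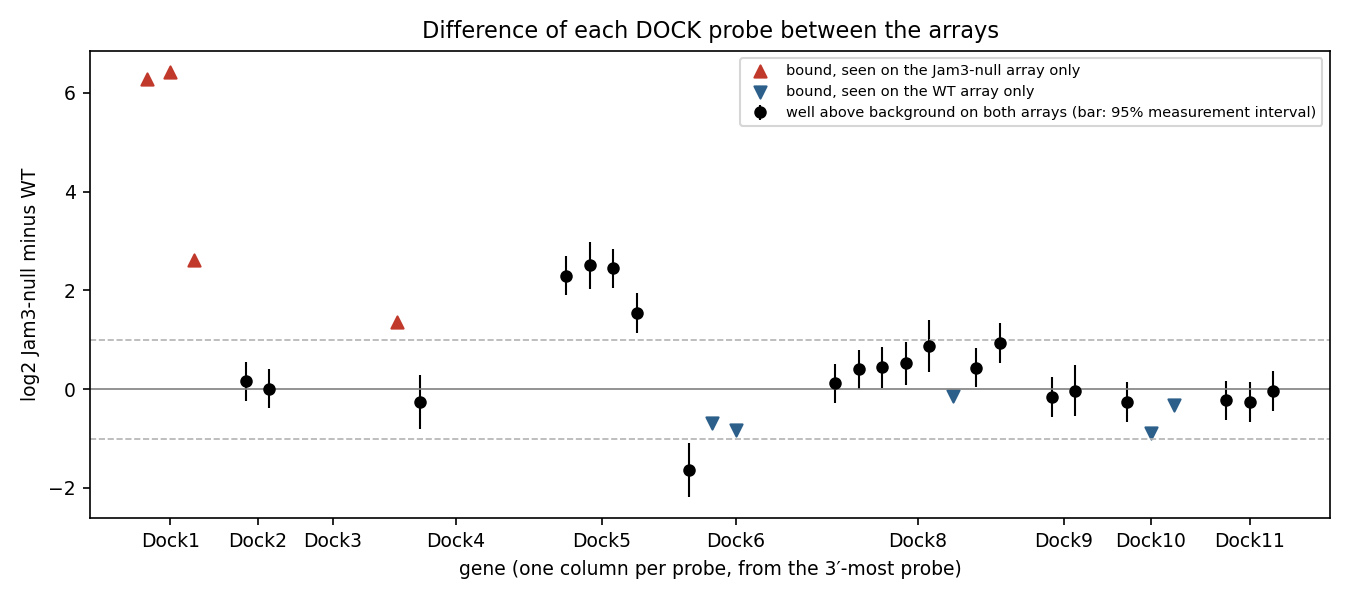
Log2 difference (Jam3-null minus WT) of each probe of the DOCK members that was well above background on at least 1 array. Circles are probes well above background on both arrays, with bars for the 95% measurement interval. Triangles are bounds of probes seen on 1 array only, and dashed lines mark 2-fold. The 3 Dock1 bounds lie between 2.61 and 6.42, the 4 Dock5 probes between 1.55 and 2.51, and the probes of Dock2, Dock9 and Dock11 between -0.26 and 0.16.

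The DOCK-D genes, exchange factors for Cdc42, lay within 2-fold at their brightest probes. Dock9 had 483 on the Jam3-null and 578 on the WT array at chr14:121941506-121941565, and 53.6 and 58.5 at chr14:121942456-121942515. Its differences were -0.16 ± 0.40 and -0.03 ± 0.52. Dock10, which is expressed in lymphocytes, had 4833 and 6199 at chr1:80498033-80498092, a difference of -0.26 ± 0.40. Its other 2 probes were dim and well above background on the WT array only, with 25.0 and 50.9 at probe 2 (log2 bound -0.88) and 18.1 and 34.4 at probe 3 (log2 bound -0.32). Dock11, also a leukocyte gene, had 4511 and 5634 at chrX:33616216-33616275, 448 and 574 at chrX:33608387-33609863, and 283 and 312 at chrX:33523539-33523598. The WT signal was the higher at each Dock11 probe, and the differences of -0.22 ± 0.40, -0.26 ± 0.40 and -0.04 ± 0.41 had intervals that held 0. Dock10 probe 2 and Dock11 probe 2, which share the 15-base run printed above, were both higher on the WT array. So was every other Dock10 and Dock11 probe, and a part of the shared run in this was not tested.

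**Figure D3:**
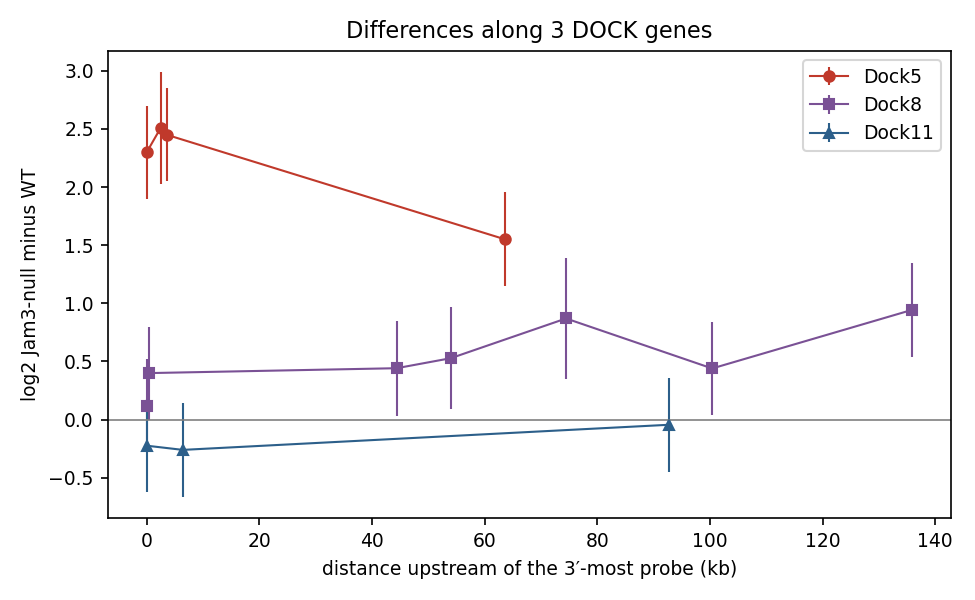
Log2 difference (Jam3-null minus WT) of the Dock5, Dock8 and Dock11 probes measured on both arrays against their distance upstream of the 3′-most probe of the gene (kb), with 95% measurement intervals as bars. Dock5 stays between 1.55 and 2.51, Dock8 runs from 0.12 at the 3′ end to 0.94 at 136 kb, and Dock11 lies between -0.26 and -0.04.

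Each of the 8 measured members kept its sign under quantile normalization, cyclic loess, median scaling, spike-in scaling and in the authors' value table. Cyclic loess moved the median of all genes from -0.07 to 0.06. Dock5 ran from 2.21 to 2.43 over these scalings and Dock6 from -1.72 to -1.5. Dock8 ran from 0.35 to 0.59. The members near 0 kept small values, for example Dock2 from 0.07 to 0.27 and Dock11 from -0.31 to -0.07.

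Promoter sequences were available for 8 of the 9 members, in 11 entries of a RefSeq table on GRCm38.p6. Dock5 had no entry, so nothing below on promoters covers it. The 250 bases before the start site are printed for Dock1, which was far higher on the Jam3-null array, for Dock6, which was lower, and for Dock2, which was nearly equal. They were searched on both strands for GAGGAA, the core bound by the myeloid factor PU.1 and other ETS proteins, for TTGCNNAA, bound by C/EBP proteins of granulocyte development, and for TGACAG, bound by Meis proteins, which are active in MLL leukemias. Capitals mark GAGGAA on either strand. The windows are chr7:134670437-134670686 (plus strand) for Dock1, chr9:21852636-21852885 (minus strand) for Dock6 and chr11:34783906-34784155 (minus strand) for Dock2, each 5′ to 3′ along the gene.
Dock1 promoter: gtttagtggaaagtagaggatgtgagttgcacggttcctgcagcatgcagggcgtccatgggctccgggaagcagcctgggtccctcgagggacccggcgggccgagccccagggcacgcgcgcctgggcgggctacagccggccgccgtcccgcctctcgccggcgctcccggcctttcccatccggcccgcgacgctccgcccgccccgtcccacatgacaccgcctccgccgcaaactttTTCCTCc
Dock6 promoter: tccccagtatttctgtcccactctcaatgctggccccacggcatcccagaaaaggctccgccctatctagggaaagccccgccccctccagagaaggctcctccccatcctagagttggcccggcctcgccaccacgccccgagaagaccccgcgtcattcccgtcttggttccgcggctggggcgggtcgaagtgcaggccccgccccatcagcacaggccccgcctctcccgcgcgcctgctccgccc
Dock2 promoter: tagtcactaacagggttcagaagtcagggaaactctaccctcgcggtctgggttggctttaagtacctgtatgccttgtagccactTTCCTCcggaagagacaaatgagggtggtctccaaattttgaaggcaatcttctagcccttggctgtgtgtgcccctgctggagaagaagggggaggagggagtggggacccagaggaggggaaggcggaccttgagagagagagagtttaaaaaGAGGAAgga

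GAGGAA was found in 23.3% of all 32851 promoters of the same length. In Dock1 it stood 7 bases before the start site on the minus strand, and in Dock2 164 bases before it on the minus strand and 9 bases before it on the plus strand. Of the other entries, 1 of Dock9 held it. TTGCNNAA, in 9.56% of all promoters, and TGACAG, in 15.9%, were not among the letters of any member's window. The Dock1 window was 71.6% G and C with 29 CpG dinucleotides, the Dock6 window 68.8% with 20, and the Dock2 window 52.8% with 4, against medians of 52.4% and 6 over all promoters. A match is a run of letters and not a binding site, and the arrays measured no binding.

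The other genes of the pathway were described by lists, chosen with earlier results of these arrays known. Among 11 adaptors and regulators of DOCK proteins, 10 were measured on both arrays, 1 was at least 2-fold higher and none lower, with a median of 0.20. That gene was Elmo3, an ELMO adaptor, with 430 on the Jam3-null and 204 on the WT array (1.17, and 0.98 after normexp correction). The adaptor Elmo1 lay at -0.35 by its brightest probe, but 2 of its 3 measured probes were positive. Elmo2 lay at 0.81. Bcar1, the Cas scaffold upstream of Crk and Dock1, had 38.8 and 11.8 and passed the background call only on the first, at least 2.69-fold higher (log2 bound 1.43, and 0.59 after normexp correction). The brightest of the list were Mob1a and Stk4, an adaptor and a kinase of the Hippo pathway, at 0.66 and -0.66.

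The GTPases that DOCK proteins act on were mostly within 2-fold. All 10 GTPases and chaperones of the list were measured on both arrays, none was at least 2-fold higher and 1 was lower, with a median of -0.02. Rac2, the haematopoietic Rac, had 81258 on the Jam3-null and 54429 on the WT array (0.67). Arhgdib, the leukocyte inhibitor that holds these GTPases in the cytosol, had 144470 and 115551 (0.42). Rac1 was at -0.15 and Cdc42 at 0.38. Rhoj, a relative of Cdc42 known in endothelial cells, had 373 and 937 (-1.23).

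Among 19 actin effectors downstream of Rac and Cdc42, 17 were measured on both arrays, with 2 past 2-fold in each direction and a median of 0.30. Cyfip2, a subunit of the WAVE complex that binds Rac, had 8259 on the Jam3-null and 3450 on the WT array (1.36). Pak1, a kinase activated by Rac and Cdc42, had 1193 and 582 (1.13). Abi2, another WAVE subunit, had 119 and 658 (-2.37), so subunits of this complex lay on both sides. Iqgap2, a scaffold that binds Rac and Cdc42, had 164 and 495 (-1.5). The brightest were Was and Wasf2, activators of actin branching, at 0.37 and -0.36.

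Receptors and bridging proteins of engulfment, the process in which Dock1 is best known, went both ways. Of 15 genes 9 were measured on both arrays, 1 was at least 2-fold higher and 2 were lower, with a median of 0.34. Adgrb1, a receptor for phosphatidylserine that signals through ELMO and Dock1, had 666 on the Jam3-null and 137 on the WT array (2.37). Mfge8, which bridges dying cells to integrins and was among the brightest of the list, had 1498 and 7307 (-2.19). Itgb3, an integrin chain that binds Mfge8, had 725 and 2491 (-1.68), whereas the bright Itgb5 was at 0.50. A further 5 genes, among them the phagocyte receptor Mertk, were not well above background on either array. Gas6, its ligand, passed the background call on the WT array only, although its Jam3-null signal was the higher (28.4 and 23.6). No direction is given for it.

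The exchange factors with a DH domain, the other large family that loads Rac and Cdc42, were spread on both sides of 0. Of 26 genes 22 were measured on both, with 5 at least 2-fold higher and 2 lower, with a median of 0.19. The higher genes were Farp2 (1.51, and 0.67 after normexp correction), Farp1 (1.45), Kalrn (1.44), Fgd6 (1.27) and Trio (1.26). The lower genes were Vav2 (-1.13, and -0.54 after normexp correction) and Fgd2 (-1.10). Over the 6 scalings, the one used here included, the count of lower genes in this list went from 0 to 2 and that of higher genes from 5 to 6. The brightest, Def6 and Vav1, exchange factors of blood cells, were at 0.13 and 0.40.

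Among 18 GTPase activating proteins, which switch Rac and Cdc42 off, 17 were measured on both arrays, with 2 at least 2-fold higher and none lower, with a median of 0.07. Srgap2 had 3255 on the Jam3-null and 1210 on the WT array (1.52), and 2 of its 3 measured probes were positive. Arhgap27 had 883 and 458 (1.04, and 0.96 at its lowest over the scalings). The brightest were Arhgap4 at 0.77 and Arhgap15 at -0.25. Of 18 genes at least 2-fold apart in these lists, 3 came under 2-fold with some scaling and 4 after normexp correction, and none changed sign.

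**Figure D4:**
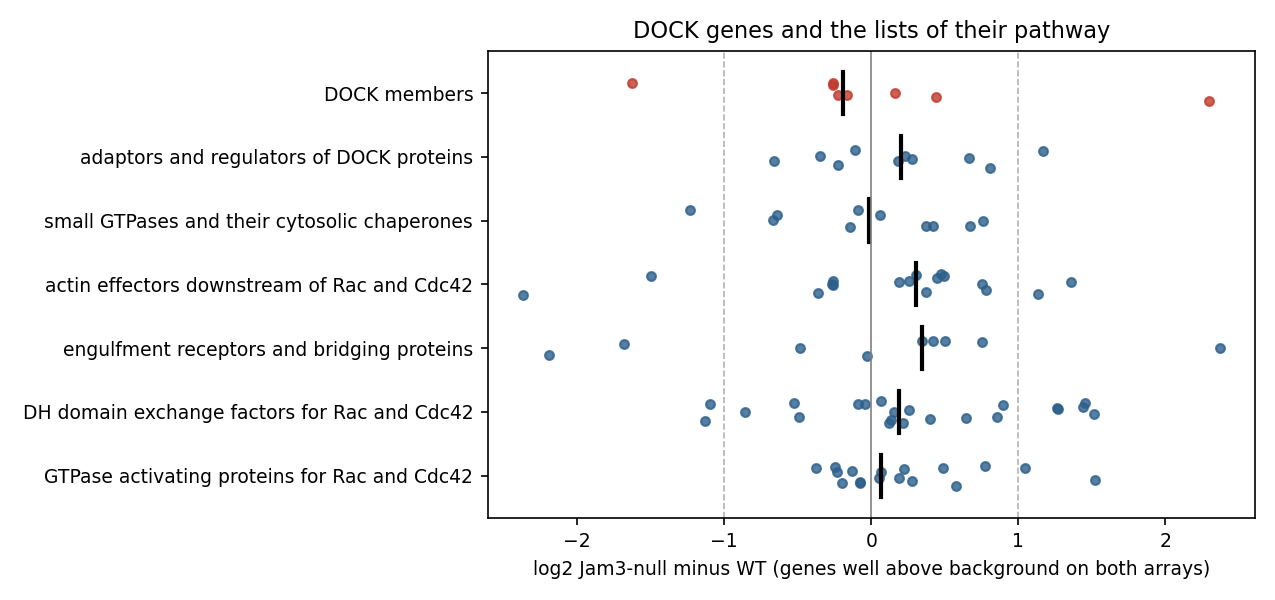
Log2 difference (Jam3-null minus WT) of the genes measured on both arrays, among the DOCK members (red) and in 6 lists of their pathway (blue). There is 1 point per gene, with a black bar at the median and dashed lines at 2-fold. Medians lie between -0.19 for the DOCK genes and 0.34 for the engulfment list, and Dock5 at 2.30 is the highest DOCK gene shown, since Dock1 has only a bound.

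Markers of maturing myeloid cells differed between the arrays beside the Dock1, Dock5 and Dock6 values. All 5 neutrophil markers were at least 2-fold higher on the Jam3-null array, with a median of 4.83 and a summed signal of 330508 against 14640. Of 7 monocyte and macrophage markers 4 were at least 2-fold higher, with a median of 1.57 and a summed signal of 8698 against 5830. Cd68 of this list lay on the other side, with 1975 and 3903 (-0.89). In bulk RNA a different share of a cell type and a different amount of RNA per cell cannot be told apart. Among the genes of the sort, Itgam, which encodes the Mac-1 chain, was at 3.71 (3703 and 302) and Kit at 0.09. Ptprc, whose product was not a marker of the sort, was at 0.61.

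Several markers of other cells did not pass the background call. Of 6 B cell markers 2 were measured on both arrays, with summed signals of 7838 on the Jam3-null and 11359 on the WT array, of which Cd79b gave 7761 and 11223, while Pax5 and Cd79a were not well above background on either. T cell markers summed to 384 and 477, with 4 of 5 measured on both arrays. Lck of these was at least 2-fold lower (-1.03, and -0.52 after normexp correction). Cd3d passed the background call on the Jam3-null array only and was at least 4.93-fold higher (71.2 and 13.3). After normexp correction its log2 bound of 2.30 became 0.96, less than 2-fold. Erythroid markers summed to 577 and 307, with 2 of 5 measured and 1 of them higher. Megakaryocyte markers summed to 639 and 326, with 1 of 4 measured on both arrays, Gp9, which was higher, and Gp1ba not well above background on either. The other megakaryocyte markers went the opposite way and passed the background call on the WT array only. Itga2b was at least 3.75-fold lower (5.79 and 104) and Pf4 at least 2.24-fold lower (7.29 and 62.0). After normexp correction their log2 bounds of -1.91 and -1.16 became -0.89 and -0.43, each less than 2-fold. Stromal and endothelial markers summed to 432 and 2001, with 3 of 6 measured, 2 of them lower (Pdgfrb at -2.50), and Cdh5, Kdr and Col1a1 not well above background on either. The part of these cell types in the DOCK results was not tested.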

How the data were processed

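Total RNA was amplified and labelled with Cy3 for single-colour Agilent arrays, per the labels' protocols. Per the file headers, Agilent Feature Extraction 10.7.3.1 gave the spot intensities (version 10.7 in the submitters' processing notes), after background subtraction and detrending within each array. The deposited intensity is linear and not normalized between arrays. The authors' value table holds log2 values (Pearson r with the log2 processed signals 0.999 on each array), with a normalization not given in these sources, and served as an alternative only.

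Outlier spots were left out (151 and 163), and 0 were saturated. From the log2 processed signal each array's 75th percentile (667.8 for Jam3-null, 713.9 for WT) was subtracted. On the Jam3-null array 55.0% of spots and on the WT array 61.8% were well above background, and dim probes pass more easily on the WT array. A gene took its probe with the highest mean signal and was compared when that probe passed the background call on both. Probes were named by accession through a RefSeq table of GRCm38.p6, used for names only (27668), by older symbols (471) or else as the file names them (13035).

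The number of arrays, 1 per genotype, allows no test and limits how precise any value is. The members and lists were chosen with earlier results of these data known. All members and probes are named, with Dock3, and from each pathway list the genes at least 2-fold apart, or with such a bound, and the 2 brightest; Elmo1, Elmo2, Rac1, Cdc42, Mertk and Gas6 were added after their values were seen. Some genes are not reported here. The steps were tested on simulated data. Alternatives were another background correction, other scalings, other filters, the mean of the probes and other fold thresholds. The software was Python 3.11.15 with matplotlib 3.10.9, pandas 2.3.3 and numpy 2.4.6, and limma 3.58.1 under R 4.3.3.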

Additional observations from a re-analysis of the deposited data

How the results depend on the processing

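Of 69 values of the members under an alternative, 68 moved by no more than their 95% measurement interval and 0 of those past 2-fold changed sign. Many could not move far. The filters left each value as it was, and median and spike-in scaling shifted all genes by a constant smaller than the intervals. The mean of the probes could not change Dock4, Dock6 and Dock10, each with 1 measured probe. The exception among the 69 was Dock6, at -0.84 after normexp correction. The count of DOCK genes at least 2-fold lower was therefore 0 after normexp correction. It was also 0 among genes with a mean signal above the median, where Dock6 was not included. Without a filter on dim probes 2 DOCK genes were at least 2-fold higher, Dock1 being added. The median of the DOCK genes ran from -0.28 to 0.16 and was positive in the brighter genes only, where fewer members were left. Over all genes, 2828 were higher and 2920 lower without a filter, 521 and 567 among the brighter genes, 2647 and 2917 at 1.5-fold, and 709 and 421 at 3-fold, fewer or more genes being counted by construction. Signal near background limits Dock1, which has only bounds, and the dim probes of Dock4 and Dock6. Leaving out a replicate was not possible with 1 array per genotype. No paired analysis was possible because each genotype has 1 array.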
